A study of Mus musculus with 2 samples.

Results

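The genes described here are 8 named genes that make, load, export or take up lipoproteins in brain. They are the apolipoproteins Apoe, Clu and Apod, the lipid transporters Abca1, Abcg1 and Abca7, and the receptors Lrp1 and Sorl1. They were chosen by name, with earlier results of these data known. They make up 8 of the 55536 annotated genes in the deposited tables, 22028 of which are protein-coding. The samples were 2 libraries of total RNA from hippocampus, taken at 25 days of age from male mice of B6CASTF1/J, a first-generation hybrid of a laboratory strain and the wild-derived CAST strain. The labels name the tissue as a layer of the hippocampus and list no treatment. The libraries form 1 group, so no condition was compared and no test was made. They are labelled as biological replicates with separate tissue sample identifiers, yet both carry the same donor identifier. It is therefore not settled whether they came from separate animals, and their spread may be purely technical. Reads from both parental genomes were assigned to the mm10 annotation, and the part this plays in the values was not tested.

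Neurons and glia of the brain exchange cholesterol on particles that resemble high-density lipoproteins and are made locally, because plasma lipoproteins do not cross the blood-brain barrier. Astrocytes secrete apolipoprotein E and clusterin, and microglia secrete apolipoprotein E to a lesser extent. The ABC transporters ABCA1 and ABCG1 load the particles with phospholipid and cholesterol. Receptors of the low-density lipoprotein (LDL) receptor family then take the particles up. Variants of human APOE, CLU, ABCA7 and SORL1 are known for their association with Alzheimer's disease.

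Annotated genes gathered 30635891 expected counts in the library of replicate 1 and 35713471 in that of replicate 2. For a gene with 0 counts, levels of up to 3 counts remain possible, which is 0.0979 counts-per-million in replicate 1 and 0.0840 counts-per-million in replicate 2. Each of 11 lists of cell type markers had at least 2 genes at 1 transcript-per-million (TPM), a level that corrects for transcript length, or more. All 6 neuron markers, all 8 astrocyte markers and all 6 myelin markers reached 10 TPM. Of the other lists, 6 of 8 microglia, 3 of 4 oligodendrocyte precursor, 4 of 5 endothelial and 2 of 5 mural markers did. So did 4 of 5 blood, 1 of 5 fibroblast, 1 of 6 choroid plexus and 0 of 4 ependymal markers. Over all protein-coding genes, 58.9% reached 1 TPM and 36.8% reached 10 TPM. Astrocyte markers summed to 1807 TPM in replicate 1 and 1795 TPM in replicate 2, and microglia markers to 181 and 185 TPM. Markers of red blood cells summed to 756 TPM in replicate 1 and 1118.5 TPM in replicate 2, and 2 of 6 choroid plexus markers reached 1 TPM, Ttr at 47.9 and 61.0 TPM among them. In bulk tissue, fewer cells of a type and less RNA per cell cannot be told apart.

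The 8 genes spanned a wide range of levels, from Apoe at 1140.5 ± 37.7 TPM to Abca7 at 4.27 ± 0.134 TPM (SD, n = 2). Their order by TPM was Apoe, Clu, Lrp1, Sorl1, Apod, Abcg1, Abca1 and Abca7. The replicate ranges of neighbours in this order did not overlap. Of the 8 genes, 6 averaged at least 10 TPM, a level that 36.8% of protein-coding genes reached, and 3 averaged at least 100 TPM, which 3.97% reached. The median of the 8 genes was 64.1 TPM, against 3.42 TPM over all protein-coding genes and 15.1 TPM over those at 1 TPM or more. The genes were chosen for their part in brain with earlier results known, so these contrasts describe levels and test nothing. Together the 8 genes held 1896 TPM in replicate 1 and 1963 TPM in replicate 2, which was 0.405% and 0.415% of all protein-coding TPM. Apoe made up 59.1 ± 0.511% of that sum. On expected counts, which do not correct for length, Apoe made up 26.6% and 28.5% of the 8 genes' counts, and Lrp1, whose main transcript is long, gathered 25372 counts in replicate 1 and 25775 in replicate 2 beside 23660 and 29141 for Apoe. The deposited posterior SD of the gene count, which measures the uncertainty from reads shared between genes, was 0 for each of the 8 genes in both replicates, as it was for 81.0% of genes with at least 100 counts.

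**Figure D1:**
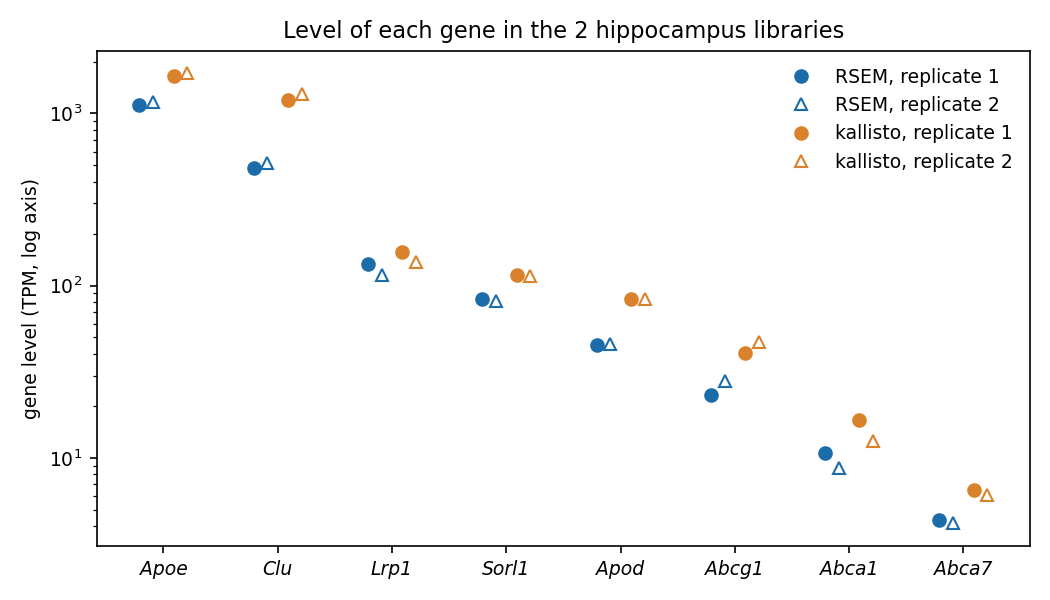
Level of each of the 8 genes in TPM on a log axis, from the RSEM gene table (blue) and from the kallisto transcript table summed per gene (orange), with filled circles for replicate 1 and open triangles for replicate 2. The order of the genes is the same in both tables, and Apoe lies at 1114 and 1167 TPM in the RSEM table, while Abca7 lies at 4.36 and 4.17 TPM.

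Apoe (mm10 chr7:19696109-19699188, minus strand) encodes apolipoprotein E, the main lipid-carrying apolipoprotein of the brain. It stood at 1114 TPM in replicate 1 and 1167 TPM in replicate 2 and ranked 18 among the 22028 protein-coding genes. The next gene below it in level was Hpca (1113 and 1157 TPM), which encodes the neuronal calcium sensor hippocalcin, and their replicate ranges overlapped. The kallisto table, the second of the authors' quantifications, gave Apoe 1649 and 1712 TPM, rank 22.

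The tables placed the Apoe reads on different transcripts. In the RSEM transcript table, Apoe-209 held 86.7% of Apoe TPM in replicate 1 and 88.6% in replicate 2. In the kallisto table, Apoe-209 had 0 counts and Apoe-205 held 95.5% and 94.7%, whereas RSEM gave Apoe-205 only 0.231% and 0.0463%. Apoe-206, whose start is the most upstream, held 7.49% and 7.43% by RSEM and 4.03% and 4.75% by kallisto, and Apoe-201 held 3.92% and 2.43% by RSEM and 0 by kallisto. These 4 transcripts, Apoe-201, Apoe-205, Apoe-206 and Apoe-209, carry an identical coding sequence of 933 bases before the stop codon and differ at their ends. Apoe-209 and Apoe-205 share 1067 bases, 37 bases occur only in Apoe-209 and 154 only in Apoe-205, and their starts lie 601 bases apart. The coding sequence is therefore the same under either assignment, and the transcript start in use was not settled by these tables. The annotation gives Apoe-205 and Apoe-206 its highest transcript support level, 1, and gives Apoe-209 level 5 and a tag for lack of support from the organism itself.

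**Figure D2:**
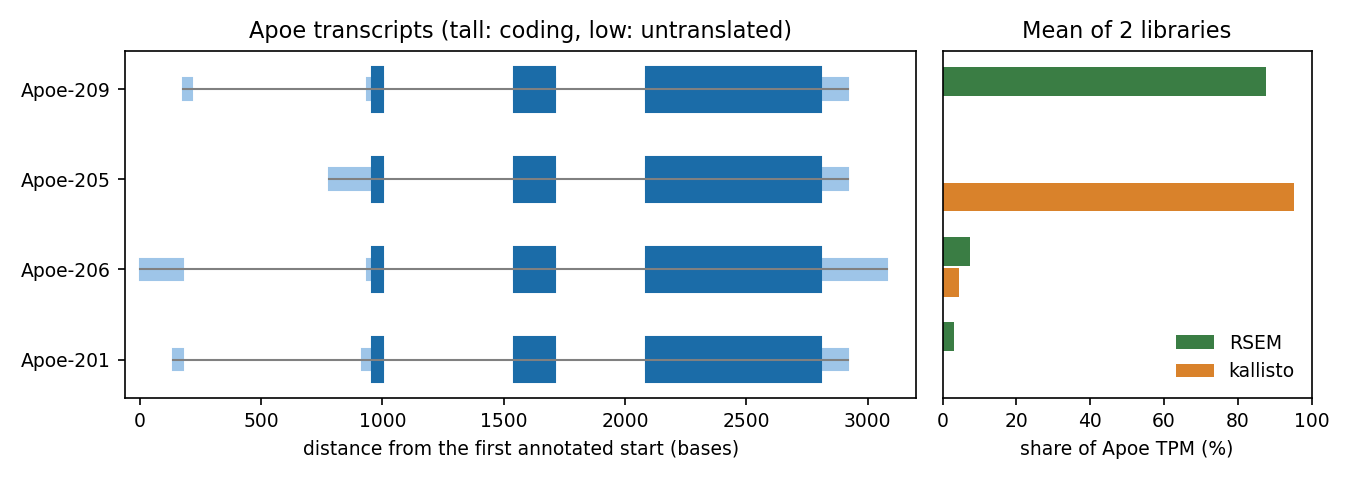
Left, exons of 4 Apoe transcripts by distance in bases from the first annotated start, with coding parts tall and untranslated parts low. Right, the mean share of Apoe TPM held by each transcript in percent, by RSEM (green) and by kallisto (orange). The coding parts are the same in all 4, and the leading transcript is Apoe-209 by RSEM and Apoe-205 by kallisto.

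Because the tables disagree on where Apoe transcripts begin, the promoter windows nearest to the starts of Apoe-206 and Apoe-205 are shown. The start of Apoe-209, which led by RSEM, lies in neither window, 180 bases downstream of the Apoe-206 start. Each comes from RefSeq (GRCm38.p6) and holds 250 bases before the start in lower case and 50 bases from the start on in capitals. The start in the first window is that of Apoe-206, and the start in the second lies 9 bases from that of Apoe-205.
Apoe, chr7:19699139-19699438, minus strand: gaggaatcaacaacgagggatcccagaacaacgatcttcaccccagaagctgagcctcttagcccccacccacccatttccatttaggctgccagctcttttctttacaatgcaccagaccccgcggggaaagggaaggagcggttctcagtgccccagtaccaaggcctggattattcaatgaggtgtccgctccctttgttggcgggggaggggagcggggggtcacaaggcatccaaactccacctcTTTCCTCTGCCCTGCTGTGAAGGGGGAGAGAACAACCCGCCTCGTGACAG
Apoe, chr7:19698349-19698648, minus strand: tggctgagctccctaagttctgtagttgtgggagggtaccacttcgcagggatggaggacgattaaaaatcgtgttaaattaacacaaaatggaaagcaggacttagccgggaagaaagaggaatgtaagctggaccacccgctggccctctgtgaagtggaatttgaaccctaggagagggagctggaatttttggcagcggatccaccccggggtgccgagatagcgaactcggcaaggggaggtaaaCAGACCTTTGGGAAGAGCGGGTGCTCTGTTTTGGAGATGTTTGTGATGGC
Neither window held TATAAA, the TATA box letters, which occur on either strand in 13.6% of 32851 RefSeq windows of the same length. Both also lacked CCAAT, found in 37.4% of those windows. The GC box letters GGGCGG, found in 35.7%, were missing from both as well. The other Apoe window, which is set on the start of Apoe-207 between these and is not printed, held TATAAA once on each strand, in matches that overlap. Apoe and Abca1 are known targets of the liver X receptors, which bind repeats of AGGTCA spaced by 4 bases. The single half-site AGGTCA was found on neither strand in these windows, nor in any of the 9 windows matched for Apoe, Abca1, Abca7, Lrp1, Sorl1 and Apod, and it occurs in 16.3% of all windows. The spaced repeat, which contains it and was searched as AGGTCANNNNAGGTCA, occurs in 0.0152% of all windows. A repeat this rare was hardly to be found in 9 windows, and variants of these letters were not searched. No match says only that these exact letters are not in these windows, and a liver X receptor site of other letters may be there.

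Clu (mm10 chr14:65968483-65981547, plus strand) encodes clusterin, also called apolipoprotein J, a secreted chaperone carried on lipoprotein particles. It stood at 481 TPM in replicate 1 and 512 TPM in replicate 2, rank 72 among protein-coding genes, between Camk2b (527 and 502 TPM) and Ywhae (463 and 528 TPM). Apoe lay 2.32 times above Clu in replicate 1 and 2.28 times in replicate 2. In the kallisto table Clu stood at 1205 and 1305 TPM, rank 35. The log2 ratio of RSEM over kallisto was -1.34 for Clu, below the span of -1.21 to -0.31 between the 5th and 95th percentiles of 12919 protein-coding genes, whose median was -0.65. Lrp1 lay above that span at -0.24, and the other 6 genes lay inside it, from -0.87 for Apod to -0.47 for Sorl1.

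Clu-201 led in both tables, and its share of Clu TPM differed between them. Clu-201, with the full coding sequence, held 97.8% of Clu TPM in each replicate by RSEM, and 56.0% and 54.1% by kallisto. On counts, which do not correct for length, it held 99.1% by RSEM and 87.7% by kallisto on average. Clu-205, a 558-base model annotated for nonsense-mediated decay, held 0.0977% and 0.637% by RSEM and 21.5% and 24.8% by kallisto. Clu-206, a 632-base model with an incomplete end, held 0.289% and 0.305% by RSEM and 22.1% and 20.95% by kallisto. Clu-201 contains 554 of the 558 bases of Clu-205 and 390 of the 632 bases of Clu-206.

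Apod (mm10 chr16:31296192-31314808, minus strand) encodes apolipoprotein D, a lipocalin that binds small hydrophobic ligands such as arachidonic acid and is made by oligodendrocytes and fibroblasts. It stood at 45.5 TPM in replicate 1 and 46.1 TPM in replicate 2, on 935 and 1108 expected counts, and ranked 2297. Its neighbours in level were Doc2b (45.5 and 46.1 TPM) and Dhx9 (45.1 and 46.4 TPM). Apoe lay 24.5 times above Apod in replicate 1 and 25.3 times in replicate 2. Fibroblast markers summed to 31.8 TPM in replicate 1 and 38.9 TPM in replicate 2 and myelin markers to 2233 and 2356 TPM, and their part in the Apod level was not tested.

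Apod was the only one of the 8 genes whose leading transcript held less than 50% of the gene by RSEM. Apod-202, a coding transcript, held 45.9% and 49.2% of its TPM, and Apod-201, annotated as a retained intron, held 45.5% and 41.1%. By kallisto Apod-202 held 94.3% and 94.6% and Apod-201 had 0 counts. Apod-203, which includes an additional exon near the start, held 6.88% and 6.81% by RSEM and 5.74% and 5.38% by kallisto. With complete coding transcripts alone, Apod stood at 24.0 and 25.8 TPM by RSEM. Apod-201 keeps the first intron of Apod-203, 83 bases long, which is shown because neither coding model holds it. Like Apod-203, it also holds the exon after this intron, which Apod-202 lacks. The splice-site ends of the intron, GT and AG, are in capitals, and the sequence is from the GENCODE M21 transcript of Apod-201.
Apod-201 kept intron, chr16:31314469-31314551, minus strand: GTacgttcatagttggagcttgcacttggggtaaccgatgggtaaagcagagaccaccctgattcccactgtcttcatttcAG

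Abca1 (mm10 chr4:53030787-53159895, minus strand) encodes the transporter that moves phospholipid and cholesterol onto lipid-poor apolipoproteins. It stood at 10.7 TPM in replicate 1 and 8.71 TPM in replicate 2, rank 8219, next to Il33 (8.60 and 10.8 TPM) and Ankzf1 (10.2 and 9.17 TPM). The replicates therefore fell on either side of 10 TPM. Abca1-201 held 93.0% of Abca1 TPM in replicate 1 and 100% in replicate 2, and the remainder was Abca1-202, a 775-base processed transcript with 10.5 and 0 expected counts. By kallisto Abca1 stood at 16.6 and 12.5 TPM.

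Abcg1 (mm10 chr17:31057675-31117988, plus strand) encodes a half-transporter that exports sterol to particles already carrying lipid. It stood at 23.1 TPM in replicate 1 and 28.0 TPM in replicate 2, rank 4316, between Gpam (24.9 and 26.2 TPM) and H2-Ke6 (27.2 and 23.8 TPM). Abcg1 lay 2.16 times above Abca1 per length in replicate 1 and 3.21 times in replicate 2. Both gathered similar expected counts, with 2045 and 2649 for Abcg1 and 2110 and 2165 for Abca1. Abcg1-201 held 69.6% and 62.1% of Abcg1 TPM by RSEM but 92.9% of its counts on average. Abcg1-204, a 912-base model with an incomplete end, held 20.5% and 28.3% by RSEM and 19.4% and 22.7% by kallisto. Abcg1-203, of 644 bases, held 1.43% and 5.29% by RSEM and 13.1% and 19.3% by kallisto. With complete coding transcripts alone, Abcg1 stood at 16.8 and 18.1 TPM. Abcg1-204 starts 12 bases from Abcg1-201 and lacks a coding exon of 51 bases, or 17 codons, that Abcg1-201 holds. The capitals below mark that exon whole, from the GENCODE M21 transcript.
Abcg1-201 exon, chr17:31098253-31098303, plus strand: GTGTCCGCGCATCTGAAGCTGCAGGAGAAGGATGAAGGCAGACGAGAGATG

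Abca7 (mm10 chr10:79996494-80015572, plus strand) encodes a relative of ABCA1 that moves phospholipid and is known for a part in phagocytosis. It was the lowest of the 8 genes, at 4.36 TPM in replicate 1 and 4.17 TPM in replicate 2 on 597 and 670 expected counts, and ranked 10552, between Slc26a4 (4.19 and 4.35 TPM) and Susd1 (4.94 and 3.59 TPM). Abca1 lay 2.45 times above it in replicate 1 and 2.09 times in replicate 2. By RSEM, complete coding models took all Abca7 counts, and the tables ranked them in opposite order. Abca7-202 held 58.5% and 59.95% of Abca7 TPM by RSEM and 37.3% and 28.2% by kallisto. Abca7-203 held 41.5% and 40.05% by RSEM and 62.7% and 71.8% by kallisto. Their starts lie 1082 bases apart, and 1 exon of Abca7-203 begins 24 coding bases, or 8 codons, upstream of that exon in Abca7-202. Those bases are shown in capitals from the GENCODE M21 transcript, followed by the RefSeq promoter window of the Abca7-202 start, where capitals again mark the 50 bases from the start on.
Abca7-203 added coding bases, chr10:80007300-80007323, plus strand: CTAAGCTGGTGCTGGATCCCCAAG
Abca7, chr10:79996244-79996543, plus strand: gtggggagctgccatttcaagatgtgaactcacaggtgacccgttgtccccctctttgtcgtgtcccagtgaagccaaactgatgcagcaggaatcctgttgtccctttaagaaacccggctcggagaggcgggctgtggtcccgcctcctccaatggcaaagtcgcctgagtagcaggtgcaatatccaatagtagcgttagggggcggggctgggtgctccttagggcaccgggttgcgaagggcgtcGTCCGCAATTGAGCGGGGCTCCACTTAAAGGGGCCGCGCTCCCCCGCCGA
This window held CCAAT at 2 places over both strands. It held the GC box letters at 1 place and no TATA box letters. Its GC content was 60.7% and it held 19 CpG sites, against medians of 52.7% and 7 over all RefSeq windows. The Apoe windows above had GC contents of 57.7% and 52.0% and held 10 and 11 CpG sites. Motif matches describe the letters of a window and do not show that a factor binds there.

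Lrp1 (mm10 chr10:127538161-127621148, minus strand) encodes a large endocytic receptor that takes up Apoe-containing particles into neurons and glia. It stood at 134 TPM in replicate 1 and 115 TPM in replicate 2, rank 661, next to Fam107a (122 and 128 TPM) and Drap1 (119 and 130.4 TPM). On counts-per-million of annotated genes, Lrp1 was at 828 in replicate 1, with a 95% exact Poisson interval of 818 to 838, and at 722 in replicate 2, with an interval of 713 to 731. These intervals cover counting error only. Sorl1 (mm10 chr9:41964720-42124297, minus strand) encodes the sorting receptor SORLA, which carries cargo such as the amyloid precursor protein between endosomes and the Golgi. It stood at 83.5 TPM in replicate 1 and 81.5 TPM in replicate 2, rank 1142, next to Jund (76.9 and 88.2 TPM) and Gpr162 (83.4 and 81.6 TPM). Lrp1 lay 1.61 times above Sorl1 in replicate 1 and 1.41 times in replicate 2.

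Short models that encode no full protein made up part of the Lrp1 level. Lrp1-201, with 14888 bases in 89 exons, held 58.9% and 59.7% of Lrp1 TPM by RSEM but 96.3% of its counts on average. Lrp1-208, a retained-intron model of 763 bases, held 17.9% and 18.1% of TPM by RSEM and had 0 counts by kallisto, and 728 of its bases are also in Lrp1-201. Lrp1-205, a 679-base model annotated for nonsense-mediated decay, held 12.2% and 14.2% by RSEM and 16.7% and 19.4% by kallisto. The 5 retained-intron models together held 27.2% and 23.5% of Lrp1 TPM and 2.71% and 2.08% of its counts. With complete coding transcripts alone, Lrp1 stood at 81.4 TPM in replicate 1 and 70.8 TPM in replicate 2 and Sorl1 at 77.8 and 75.5 TPM, so that their ranges overlapped. Sorl1-201 held 93.2% and 92.6% of Sorl1 TPM by RSEM and 97.8% and 94.97% by kallisto. Sorl1 shares 185 exonic bases with Gm16214, an annotated antisense gene that had 0 counts in both replicates. It was the only one of the 8 genes with exonic bases in another annotated gene.

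**Figure D3:**
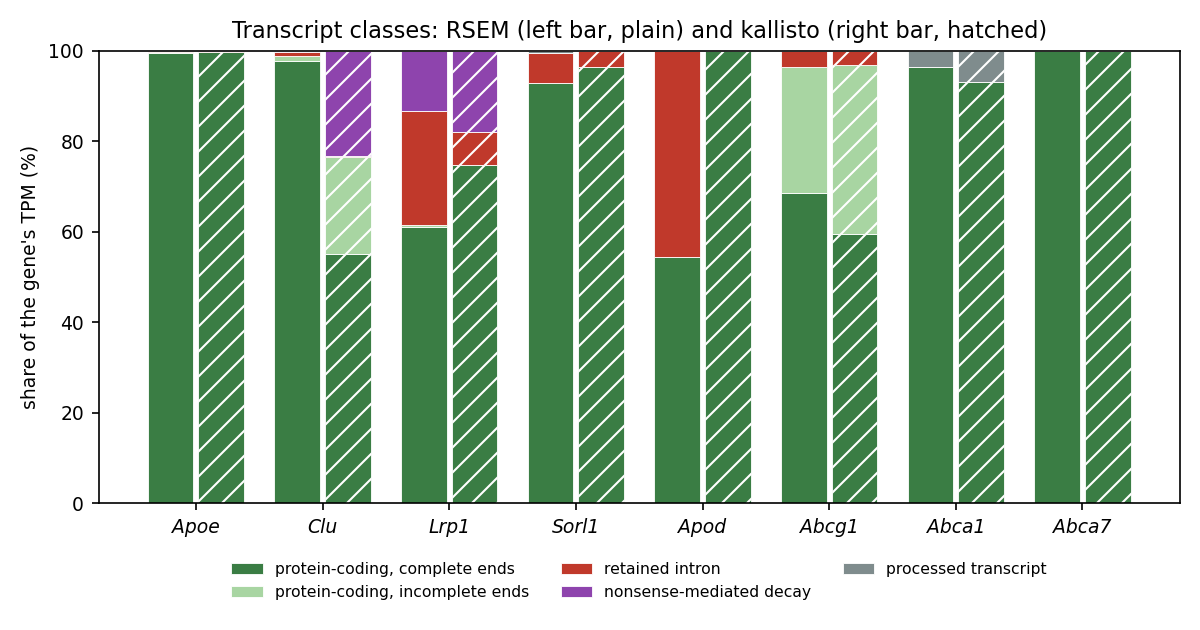
Share of each gene's TPM in percent, mean of 2 replicates, by the annotated class of transcript, with the RSEM table as the plain left bar and the kallisto table as the hatched right bar. Retained-intron models (red) take 47.2% of Apod in replicate 1 and 43.96% in replicate 2 by RSEM and 0 by kallisto, and nonsense-mediated decay models (purple) are seen in Clu by kallisto and in Lrp1 by both.

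Over the 8 genes, 50 transcripts are annotated, 15 of them as retained introns. In each table, replicates 1 and 2 shared the leading transcript of 8 of 8 genes, and the share over all genes was not computed. The tables shared it for 6 of 8 genes, all but Apoe and Abca7, against 76.2% of 9856 protein-coding genes with at least 4 TPM and 2 transcripts. A leading transcript with at least 50% of the gene's TPM was found for 7 of 8 genes by RSEM, against 68.4% of the same genes. By kallisto it was found for 8 of 8, and the share over all genes was not computed.

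None of the 8 genes was over 2-fold apart between replicates on expected counts scaled by the trimmed mean of M-values (TMM). Of the 12719 genes averaging 100 or more expected counts, 0.778% were. With so low a share, this count is not a result about the 8 genes. The share of the 12719 genes with a smaller absolute ratio ranged from 0.259% for Sorl1 to 75.1% for Abcg1. The log2 ratio of replicate 2 over replicate 1 ranged from -0.17 for Lrp1 to 0.18 for Abcg1, with 0.11 for Apoe, 0.13 for Clu, 0.06 for Apod, 0.0006 for Sorl1, -0.02 for Abca7 and -0.15 for Abca1. All lay inside the span from -0.34 to 0.25 between the 5th and 95th percentiles of all 12719 genes, and the median was 0.03 for the 8 genes and 0.04 for all. The Poisson intervals of the replicates did not overlap for 5 of 8 genes, Apoe, Clu, Lrp1, Abcg1 and Abca1, nor for 24% of the 12719 genes. Such intervals narrow as counts rise, and the 12719 genes were not matched to the 8 genes in counts, so the shares are not alike. Scaled to spike-in totals, which moved the median of all genes to -0.17, the ratio was -0.09 for Apoe, -0.07 for Clu and -0.02 for Abcg1. Lrp1 and Abca1 were lower in replicate 2 under each of the scalings tried, and the sign of the other 6 genes changed under at least 1 of them. The share of all genes that kept their sign was not computed, so this count is not a result about the 8 genes.

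Retained-intron models had lower ratios of replicate 2 over replicate 1 than coding ones. Of 10 such models of the 8 genes averaging 20 or more expected counts, 8 were lower in replicate 2, as were 81.8% of 9022 such models over all protein-coding genes. Their median log2 ratio was -0.30 for the 8 genes and -0.52 over all protein-coding genes, against 0.02 and 0.06 for coding transcripts. Lrp1-204 had 259 expected counts in replicate 1 and 139 in replicate 2, and Clu-207 had 44.7 and 23.2. Apoe-211 and Sorl1-204 lay the other way, with 26.4 and 49.6 counts for Apoe-211 and 34.0 and 63.7 for Sorl1-204.

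**Figure D4:**
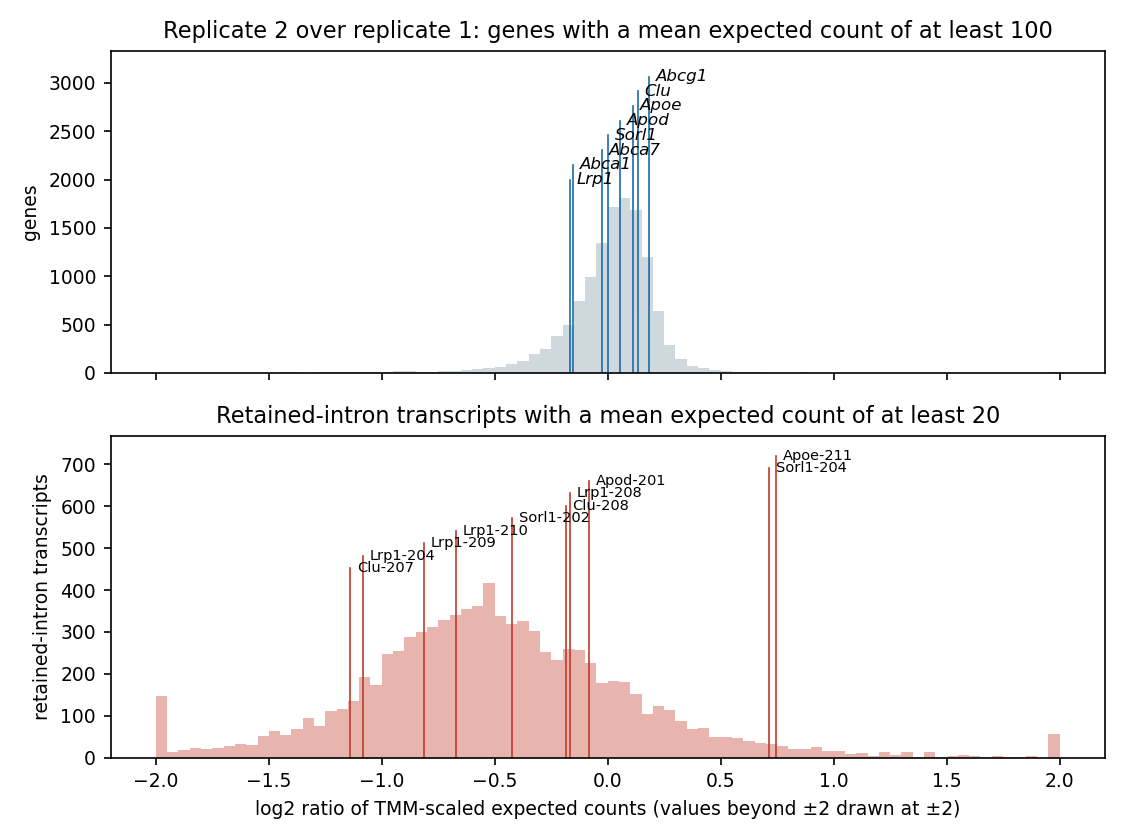
Histograms of the log2 ratio of replicate 2 over replicate 1, for genes (top, grey) and for retained-intron transcripts of protein-coding genes (bottom, pink), with the 8 genes and their retained-intron transcripts drawn as labelled lines whose height has no meaning. The 8 genes lie between -0.17 and 0.18. Of their 10 retained-intron transcripts, 8 lie below 0, as do 81.8% of the 9022 over all protein-coding genes.

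Other apolipoproteins were low or had no counts in these libraries. Beside the counts of this list and the lists below, 58.9% of all protein-coding genes reached 1 TPM and 36.8% reached 10 TPM. Of 12 genes for plasma and minor apolipoproteins, 1 reached 1 TPM, Apoc1 with 3.21 TPM in replicate 1 and 2.45 TPM in replicate 2, on 23 and 20 counts. Apoa2 (0.80 and 0.68 TPM) and Apoh (0.66 and 0.64 TPM) followed. Apoa4, Apoa5 and Apof had 0 counts, and the median of the list was 0.045 TPM. Apoc1 lies in the same gene cluster as Apoe, and its product is carried on plasma lipoproteins.

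The receptor family of Lrp1 was broadly present. Of 12 other genes of the LDL receptor family, 11 reached 1 TPM and 9 reached 10 TPM, with a median of 19.5 TPM, against 124.8 TPM for Lrp1. The highest were Lrp11 (80.7 and 85.3 TPM), Lrp8 (47.0 and 40.4 TPM), which encodes the Apoe and reelin receptor ApoER2, and Lrp1b (41.5 and 28.0 TPM), the closest relative of Lrp1. Lrp2, the megalin gene, stood at 0.29 and 0.16 TPM. Among 5 adaptors and regulators, Lrpap1, the chaperone of these receptors, stood at 62.3 and 60 TPM, and Scarb1, a receptor for high-density lipoprotein, at 17.7 and 14.5 TPM. Mylip, whose product marks LDL receptors for breakdown, stood at 12.1 and 8.20 TPM.

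Sorl1 is a VPS10-domain receptor that works with the retromer, a coat that retrieves cargo from endosomes. All 10 other genes of these groups reached 1 TPM and 9 reached 10 TPM, with a median of 44.1 TPM, against 82.5 TPM for Sorl1. Sort1, the sortilin gene, was the highest at 149 and 155 TPM, above Sorl1 in both replicates. The retromer subunit gene Vps29 stood at 87.7 and 89.4 TPM and the sorting nexin Snx3 at 83.1 and 91.9 TPM.

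Of 15 other ABC transporters of the A and G classes, 8 reached 1 TPM and 4 reached 10 TPM. The shares over all protein-coding genes were 58.9% and 36.8%. The median of the list was 1.09 TPM. Abca2, a lipid transporter of oligodendrocytes, stood at 68.2 and 71.9 TPM, above Abca1, Abcg1 and Abca7 in both replicates. Abcg4, the closest relative of Abcg1, stood at 33.9 and 30.7 TPM and Abca3 at 32.0 and 31.6 TPM. All 5 genes of the liver X and retinoid X receptors reached 1 TPM. Nr1h2, for the beta form of the liver X receptor, stood at 28.3 and 25.2 TPM, and Nr1h3, for the alpha form, at 2.28 and 1.85 TPM. Among their partners, Rxrb stood at 35.6 and 33.8 TPM, Rxra at 9.44 and 10.4 TPM and Rxrg at 2.51 and 3.60 TPM.

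Of 7 genes that remodel lipoproteins, 4 stood at 1 TPM or more, against 58.9% of all protein-coding genes. Pltp (29.3 and 32.1 TPM), Lpl (23.1 and 23.8 TPM) and Lcat (19.1 and 20.7 TPM), for phospholipid transfer, triglyceride hydrolysis and cholesterol esterification, led the list, while Gpihbp1, for the capillary anchor of lipoprotein lipase, had 0 counts. Among 10 genes of intracellular cholesterol transport and turnover, all reached 1 TPM and 8 reached 10 TPM. Cyp46a1, the neuronal enzyme that converts cholesterol to 24-hydroxycholesterol, stood at 73.2 and 77.0 TPM. Gramd1b (71.0 and 67.6 TPM) and Gramd1a (53.6 and 48.6 TPM), which carry cholesterol from the plasma membrane to the endoplasmic reticulum, followed.

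**Figure D5:**
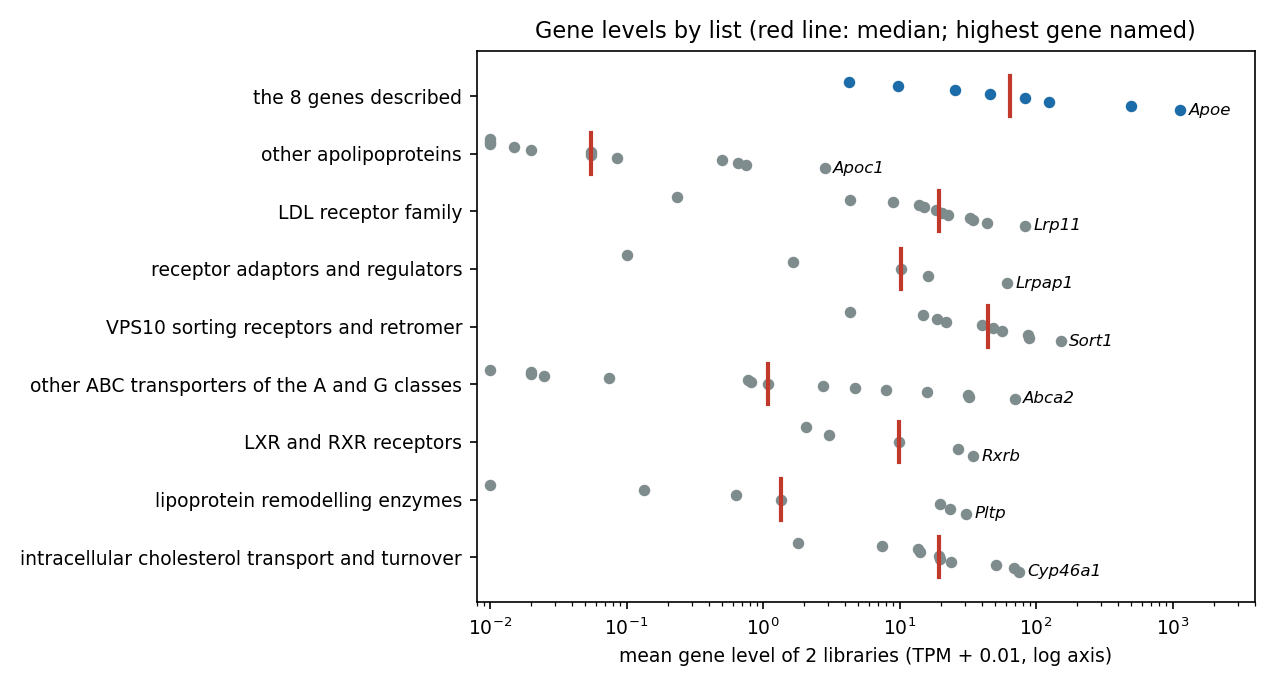
Mean level of 2 replicates in TPM plus 0.01 on a log axis for the 8 genes (blue) and for the genes of 8 related lists (grey), with the median of each list as a red line and its highest gene named. The other apolipoproteins have a median of 0.045 TPM and the VPS10 receptors and retromer genes one of 44.1 TPM.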

How the data were processed

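Total RNA libraries of 2 hippocampus samples were read from the tables the authors deposited. Their text notes name mm10 and GENCODE M21, and say that the gene table and 1 transcript table derive from a transcriptome alignment and that the other transcript table was made from reads directly. Per the file headers, the tables derived from the alignment have the columns of RSEM and the other has those of kallisto. Aligner and program versions were not given in the sources used here. Per the labels, 300 ng of RNA with ERCC spike-ins went into each library.

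The deposited expected count shares out reads that match several features, so it need not be whole. The deposited TPM divides it by an effective length and scales the rows of a library to a common sum, so that for equal counts a short model has the higher TPM. The deposited posterior SD of the count is a score of how uncertain the sharing between genes is. Of 81881 rows, 96 spike-ins and 26248 numbered rows that name no gene, which held 6 and 2 counts, stayed out of library sizes. The spike-ins held 112913 and 148536 counts.

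Gene levels are given as TPM, mean ± SD (n = 2). For replicate ratios, expected counts were rounded, a prior count of 0.5 was added and TMM factors from edgeR 4.0.16 under R 4.3.3 were applied. Poisson intervals are exact, at 95%. The ratio step was tested on simulated data. DESeq2 1.42.0 size factors were an alternative. Tables were joined in Python 3.11.15 (pandas 2.3.3 and numpy 2.4.6), intervals came from scipy 1.17.1 and plots from matplotlib 3.10.9. Genes, transcripts and coordinates were taken from GENCODE M21, and promoter windows from RefSeq (GRCm38.p6) by symbol, which matched 6 of the 8 genes.

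No groups were compared, and no p-values are given. The 8 genes and all lists were chosen with earlier results of these data known. The rule for named genes took the 8 genes, the 3 highest genes of each related list and all genes of a list of 6 or fewer, the 2 highest of each marker list, the 3 highest transcripts per gene and any other with at least 10% of it, and the next gene above and below in TPM. The text gives part of these, and some are not reported here. Lrp2 and genes with 0 counts, and transcripts compared between replicates, were named after their values were seen. So was the level from complete coding transcripts, meaning those annotated as protein-coding with both ends complete.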

Additional observations from a re-analysis of the deposited data

How the results depend on the processing

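The share of the 8 genes' TPM held by Apoe was 59.1%, and it was 50.2% in the kallisto table and 27.5% on expected counts. It ranged from 58.7% to 59.5% with either replicate left out. The number of genes at 10 TPM or more was 6 and stayed at 6 or 7 in the kallisto table, with posterior mean TPM, with TPM over protein-coding genes only, with minimums of 5 and 20 TPM, and from 6 to 7 with a replicate left out. The number with a leading transcript of at least 50% was 7, and it was 8 by kallisto, 7 on expected counts, 8 at a threshold of 40%, 5 at 60% and 7 with either replicate left out. None of the 8 genes was over 2-fold apart under DESeq2 size factors, deposited TPM, spike-in totals or kallisto counts. The same held with a prior count of 5 and with other filters on counts. With TMM scaling, none was over 1.5-fold apart. The share over all genes was not computed for these settings, so these counts are not a result about the 8 genes. The median log2 ratio of the 8 genes was 0.03, and it was 0.04 under DESeq2 size factors, -0.01 on deposited TPM, -0.18 under spike-in totals and 0.07 on kallisto counts. The order of the 8 genes was kept in the kallisto table. It was not kept with complete coding transcripts alone, an alternative chosen after seeing the data. There Lrp1 averaged 76.1 TPM and Sorl1 76.7 TPM, and their replicate ranges overlapped. No paired analysis was possible because the libraries form 1 group, and leaving out a replicate gives no value for a replicate ratio. Levels of transcripts that share most of their bases rest on the model of each program, and 2 libraries limit the precision of every SD.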

Other observations

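Some genes of the related lists lay further apart between the replicates than the 8 genes did. Lrp1b had 7244 expected counts in replicate 1 and 6260 in replicate 2, with a log2 ratio of replicate 2 over replicate 1 of -0.40, and Mylip had 725 and 585 counts, with a ratio of -0.50. Lrp2 had 75 and 42 counts and a ratio of -1.02. Rxrg lay the other way, with 96 and 170 counts and a ratio of 0.63. These genes were picked after their values were seen. The markers of red blood cells had a median ratio of 0.51 over 5 genes. Endothelial markers, which summed to 88.8 TPM in replicate 1 and 76.2 TPM in replicate 2, had a median of -0.16 over 5 genes. These were the highest and the lowest median of the 11 marker lists. The median was 0.04 over all genes averaging 100 or more expected counts. At the level of transcripts, Clu-205 had 4.49 expected counts in replicate 1 and 36.6 in replicate 2 by RSEM, and 891.5 and 1342.5 by kallisto. Abcg1-203 had 3.76 and 19.7 expected counts by RSEM and 25.1 and 51.7 by kallisto, and Abcg1-202, annotated as a retained intron, had 25.5 and 12.3 by RSEM.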
